A study of Xenopus laevis with 90 samples.

Results

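The *lin28* genes are the 4 genes of the African clawed frog *Xenopus laevis* whose symbols start with lin28, namely *lin28a.S*, *lin28a.L*, *lin28b.S* and *lin28b.L*. They were found by name in the expression tables of both frogs, among 37504 genes in frog 1 and 36504 genes in frog 2. One of them, *lin28a.S*, had been selected on its measured values, as a copy that is switched on in the embryo and strongly lowered by the treatment. Its values are therefore given here as a description, without a test, whereas the other 3 copies were taken by name alone.

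Lin28 proteins bind RNA through a cold shock domain and a pair of zinc knuckles. They are best known for binding the precursors of the let-7 microRNAs, which lets the enzymes Tut4 and Tut7 add uridines to the precursor and the nuclease Dis3l2 degrade it, so that mature let-7 does not form. Vertebrates carry the genes *lin28a* and *lin28b*, both associated with pluripotent and early embryonic cells, and in *Xenopus* embryos Lin28 proteins have been linked to the response of early cells to mesoderm-inducing signals. The genome of *X. laevis* arose from a hybrid of a pair of species, and most genes are present on a long (.L) and a short (.S) chromosome of each homeologous pair.

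Total RNA, depleted of ribosomal RNA, was sequenced from pools of 3 sibling embryos at 5.5, 6.5 and 7.5 hours post fertilization (hpf), which span zygotic genome activation (ZGA). There were 15 groups with 3 pools from each of 2 frogs, 90 libraries in all. Pools of one frog are siblings, so the spread between them is technical in the terms of the study, and each frog was fitted on its own. All values are TPM (a transcript's share of its library, already corrected for its length), so that levels of different genes can be compared, but how many reads stand behind a value is unknown.

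Wild type embryos were not injected. Treated embryos received mRNAs for the H3K4 demethylase Kdm5bwt (11 ng), for H3.3K4M (345 pg) and for TIR1 (5 ng), a plant protein. H3.3K4M is a histone H3.3 with a lysine-to-methionine change. The study used it to sequester H3K4 methyltransferases and so block new methylation. Control embryos were given the catalytically inactive Kdm5bci (4 ng) and H3.3wt (345 pg) with TIR1 (5 ng). The Kdm5b mRNA dose thus differed between treated and control embryos. The study chose these amounts so that the injected proteins reached equal levels before ZGA. All injected embryos carried TIR1. The demethylase is a fragment of the mouse protein, and the injected proteins carry a degron, so that auxin (IAA, 500 µM, labelled +IAA) leads to their degradation from 1 h before the first collection. Treated against control embryos with +IAA are called the window depletion here, and those without auxin (−IAA) the persistent depletion. Wild type embryos were sampled without auxin.

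The embryo check was made on wild type libraries at 7.5 hpf, counting the copies of marker genes that were found. In both frogs 6 of 6 zygotic blastula copies, 3 of 3 germ plasm copies and 3 of 5 maternal vegetal copies reached 1 TPM. Of the copies of differentiated tissue markers, 1 of 6 did. The markers *nodal3*, *ventx2* and *hbe1* were not found by these symbols and are not counted. The globin gene *hbg1.L*, whose sequence flanks the injected mRNAs, lay between 1844 and 31350 TPM in injected embryos and at most at 0.829 TPM in wild type. Genes at 1 TPM or more numbered 16712 to 19177 per library, and no pair of libraries held identical values.

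In the genome (assembly Xenopus_laevis_v10.1, RefSeq), *lin28a.S* lies on chromosome 2S at 67146875 to 67166142 and *lin28a.L* on chromosome 2L at 61343097 to 61361438. Both are next to a copy of *dhdds*, which encodes a subunit of an enzyme of dolichol synthesis. *lin28b.S* lies on chromosome 5S at 66787608 to 66846388 and *lin28b.L* on chromosome 5L at 83624754 to 83725677. All 4 are annotated as protein coding, with 3 transcripts for each *lin28a* copy, 1 for *lin28b.S* and 7 for *lin28b.L*.

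The *lin28a* and *lin28b* pairs had different courses in wild type embryos. *lin28b* RNA was present in every library from 5.5 hpf on, whereas *lin28a* was listed at or near 0 at 5.5 hpf and appeared during ZGA. *lin28b.S* lay between 13.5 and 36.9 TPM over all 90 libraries, with a median of 25.9 TPM, and *lin28b.L* between 4.44 and 11.0 TPM, with a median of 7.49 TPM. The wild type plot shows these courses for each frog.

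**Figure D1:**
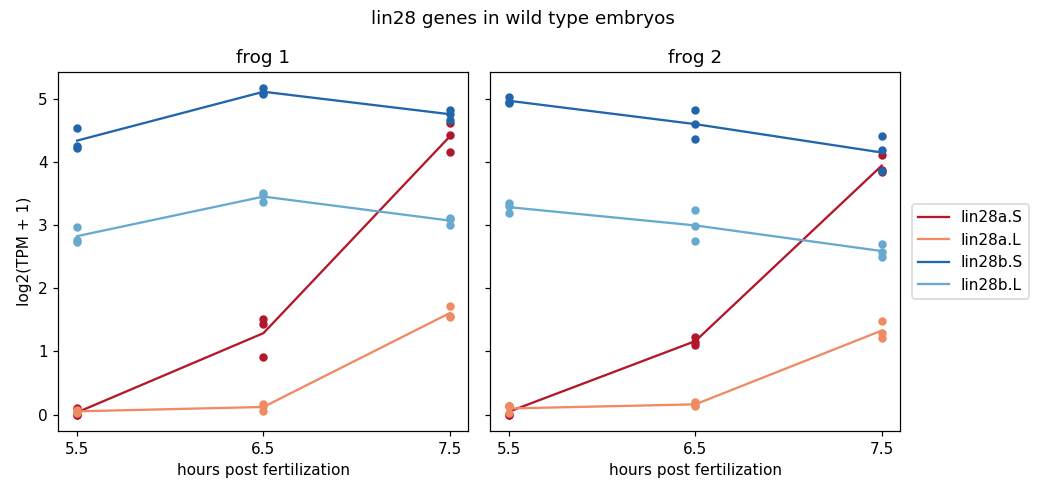
log2(TPM + 1) of the *lin28* genes in wild type embryos at 5.5, 6.5 and 7.5 hpf, in frog 1 (left) and frog 2 (right). Each point is 1 library, lines join the means of 3 libraries. *lin28a.S* climbs from near 0 to between 13.3 and 23.5 TPM, close to the level of *lin28b.S*, while *lin28a.L* reaches 1.32 to 2.3 TPM.

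In wild type embryos of frog 1, *lin28a.S* was listed at 0, 0 and 0.0748 TPM at 5.5 hpf, at 1.69, 0.890 and 1.87 TPM at 6.5 hpf and at 23.5, 20.6 and 16.9 TPM at 7.5 hpf. In frog 2 it was listed at 0.101, 0 and 0 TPM, then at 1.35, 1.15 and 1.23 TPM and at 7.5 hpf at 13.7, 16.2 and 13.3 TPM. The 3 stages did not overlap in either frog. Between 6.5 and 7.5 hpf the mean level increased 13.7-fold in frog 1 and 11.6-fold in frog 2, a difference of 3.11 ± 0.225 (SE) and 2.78 ± 0.285 in log2(TPM + 1). At 5.5 hpf, 26 of the 30 libraries of all groups were listed at 0.

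The second copy, *lin28a.L*, reached a lower level. Its values at 6.5 hpf were too near 0 to tell whether it also appeared later. At 7.5 hpf it stood at 1.95, 2.3 and 1.91 TPM in the wild type pools of frog 1 and, in frog 2, at 1.32, 1.46 and 1.79 TPM, whereas in all 60 libraries of 5.5 and 6.5 hpf it was at most 0.248 TPM. It rose from 6.5 to 7.5 hpf by 1.49 ± 0.139 (SE) in log2(TPM + 1) in frog 1 and by 1.17 ± 0.147 in frog 2. The gene passed the filter on low values (at least 1 TPM in at least 3 libraries of a frog) only through control and wild type libraries at 7.5 hpf, 5 in frog 1 and 6 in frog 2, with 0 treated libraries among them. A difference from treated or earlier embryos was therefore built into its selection, and p-values of *lin28a.L* are given here from the fit of all genes with no such filter, where the rise had Benjamini-Hochberg adjusted p = 4.80e-11 in frog 1 and 3.85e-08 in frog 2 (limma). In the fit with no filter, 2250 of 36290 genes rose in this step in frog 1 and 2138 of 35766 in frog 2. Of the genes that passed the filter, 7.58% and 6.62% rose, a share that does not bear on *lin28a.L*.

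The *lin28b* copies, present before ZGA, moved with the bulk of the transcriptome. In frog 1, wild type *lin28b.S* stood at 22.2, 18.1 and 17.7 TPM at 5.5 hpf, at 32.6, 33.2 and 34.9 TPM at 6.5 hpf and at 27.4, 26.2 and 24.4 TPM at 7.5 hpf. In frog 2 it stood at 31.6, 30.0 and 29.4 TPM, then at 27.4, 19.6 and 23.3 TPM and at 20.2, 17.3 and 13.5 TPM. The step from 5.5 to 6.5 hpf thus went up in frog 1 and down in frog 2.

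That step was 0.77 ± 0.114 (SE) in log2(TPM + 1) for *lin28b.S* in frog 1 (limma, adjusted p = 7.39e-07) and −0.37 ± 0.108 in frog 2 (adjusted p = 0.00342), beside a median of 0.61 and −0.34 over all genes tested. In frog 1, 75.8% of all genes tested rose in this step, and in frog 2, 64.4% fell. *lin28b.L* followed with 0.63 ± 0.127 (adjusted p = 5.35e-05) and −0.29 ± 0.101 (adjusted p = 0.0124). After median-ratio rescaling, which removes the shift of the whole table, the step of *lin28b.S* was 0.08 in frog 1 (adjusted p = 0.448) and 0.01 in frog 2 (adjusted p = 0.931), and that of *lin28b.L* −0.01 and 0.06. The frog 2 fall was also lost without pool 2 (adjusted p = 0.191 for *lin28b.S* and 0.349 for *lin28b.L*).

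From 6.5 to 7.5 hpf both *lin28b* copies fell in both frogs, by 0.36 and 0.45 for *lin28b.S* (limma, adjusted p = 0.0164 and 0.000594) and by 0.38 and 0.41 for *lin28b.L* (adjusted p = 0.0218 and 0.000846), beside medians of −0.23 and −0.35 over all genes. Of all genes tested, 26.2% in frog 1 and 66.8% in frog 2 fell in this step, so that a fall is close to the common course in frog 2. With median-ratio rescaling these changes were between −0.13 and −0.05, and none passed the threshold of 0.05. In frog 1 both falls were lost without pool 2 (adjusted p = 0.136 and 0.196) or pool 3 (adjusted p = 0.147 and 0.0903), and in frog 2 that of *lin28b.S* without pool 3 (adjusted p = 0.0653).

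The share of the .S copy varied less for *lin28b* than for *lin28a*. It was 77.2% ± 1.08 (SD, 90 libraries) of *lin28b* TPM, with a lowest value of 74.4% and a highest of 80.3%. At 7.5 hpf alone it was 77.7% ± 1.07 (SD, 30 libraries). At that stage *lin28a.S* held 90.3% ± 3.04 (SD, 30 libraries) of *lin28a* TPM, between 82.5% and 95.0%. There *lin28a.L* lay between 0.0905 and 2.3 TPM, and the part of such low values in the wider spread was not tested. How well reads tell such similar copies apart was not tested.

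**Figure D2:**
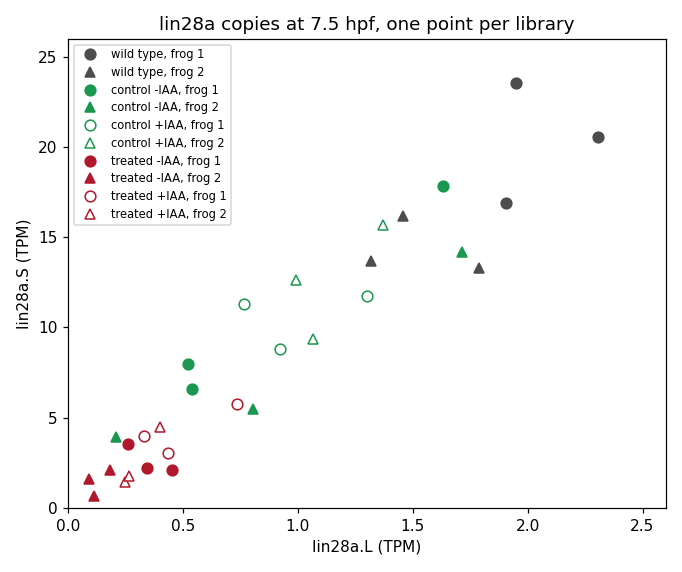
*lin28a.S* against *lin28a.L* at 7.5 hpf in TPM, 1 point for each of 30 libraries. Circles are frog 1 and triangles frog 2, filled symbols are without and open symbols with auxin, and gray, green and red mark wild type, control and treated embryos. Treated libraries lie at the lower left, up to 5.75 TPM of *lin28a.S* and 0.735 TPM of *lin28a.L*, and the copies vary together across libraries.

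At 7.5 hpf *lin28a.S* was lower in treated than in control embryos in both frogs and under both depletions. In the window depletion of frog 1 it was listed at 3.06, 5.75 and 4.00 TPM in treated pools and at 8.83, 11.3 and 11.7 TPM in control pools. In frog 2 the treated pools stood at 1.41, 1.74 and 4.48 TPM and the control pools at 9.36, 15.7 and 12.6 TPM. All treated pools lay below all control pools in each frog, and the control means were 2.49-fold and 4.93-fold higher. In bulk samples, fewer cells with the transcript and less transcript per cell cannot be told apart.

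In the persistent depletion, *lin28a.S* was at 2.13, 3.56 and 2.23 TPM in treated and at 7.98, 6.61 and 17.8 TPM in control pools of frog 1. In frog 2 the treated pools stood at 0.670, 1.57 and 2.09 TPM and the control pools at 3.94, 5.46 and 14.2 TPM. The groups again did not overlap, and the control means were 4.09-fold and 5.44-fold higher. One control pool, pool 3 of the −IAA controls, was far above the other two in both frogs.

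On the log2(TPM + 1) scale the window difference of *lin28a.S* was −1.16 ± 0.225 (SE) in frog 1 and −2.01 ± 0.285 in frog 2, and the persistent difference −1.60 ± 0.225 and −1.73 ± 0.285. The median over all genes tested lay between 0.03 and 0.16 in these comparisons. Without pool 3 of the −IAA controls, a choice made after seeing the data, the persistent difference of *lin28a.S* was −1.20 in frog 1 and −1.25 in frog 2. The window minus persistent difference was 0.44 ± 0.318 in frog 1 and −0.28 ± 0.403 in frog 2, opposite in sign between the frogs and within 1.5 SE of 0. The window and persistent comparisons have separate control libraries.

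**Figure D3:**
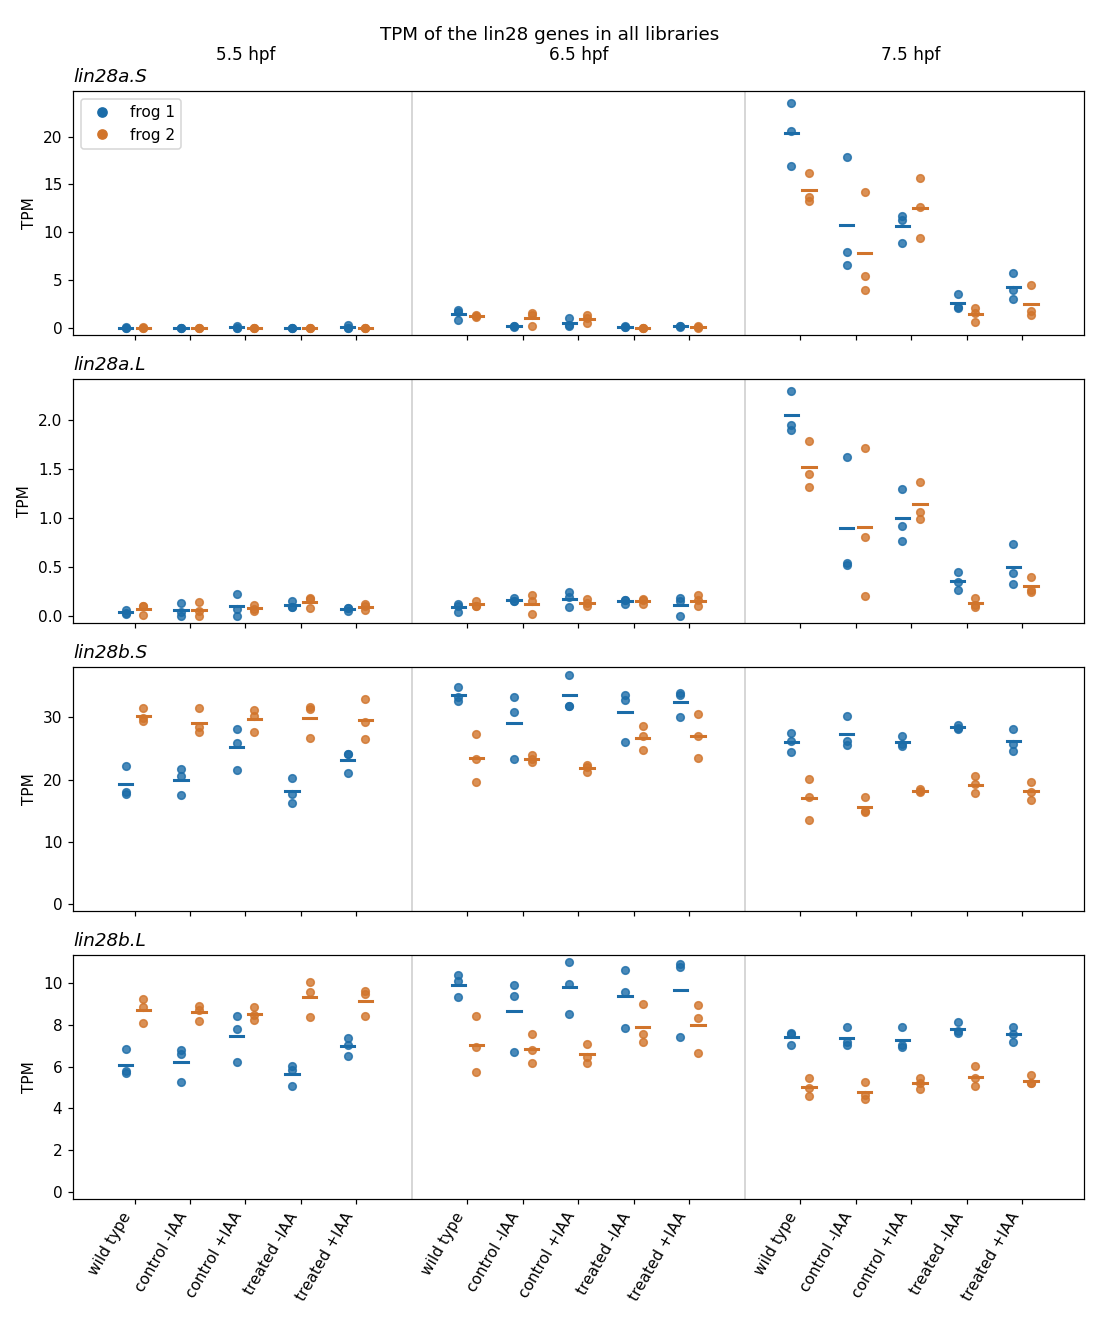
TPM of each *lin28* gene (rows, with separate scales that include 0) in every library, by stage and group. Points are libraries, bars are means of 3 libraries, blue is frog 1 and orange frog 2. At 7.5 hpf the treated libraries of *lin28a.S* lie between 0.670 and 5.75 TPM and the wild type libraries between 13.3 and 23.5 TPM, whereas *lin28b.S* and *lin28b.L* show no such step.

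*lin28a.L* changed in the same direction, with all treated pools below all control pools in both frogs and both depletions. In the window depletion it stood at 0.436, 0.735 and 0.332 TPM in treated and 0.921, 0.767 and 1.3 TPM in control pools of frog 1, and at 0.249, 0.266 and 0.398 against 1.07, 1.37 and 0.990 TPM in frog 2. Under persistent depletion it stood at 0.452, 0.262 and 0.344 against 0.520, 0.538 and 1.63 TPM in frog 1, and at 0.113, 0.0905 and 0.181 against 0.209, 0.803 and 1.71 TPM in frog 2. The gap between the groups was narrow in frog 1 and, in the persistent depletion, also in frog 2. The share of all genes whose pools did not overlap was not counted in any treated against control comparison.

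In the fit with no filter, the difference of *lin28a.L* passed the threshold in frog 2 and not in frog 1, and no test of the difference between the frogs was made. In frog 2 it was −0.71 ± 0.147 (SE) in log2(TPM + 1) in the window (limma, adjusted p = 0.00145) and −0.68 ± 0.147 in the persistent depletion (adjusted p = 0.00269). In frog 1 the values were −0.41 ± 0.139 (adjusted p = 0.191) and −0.44 ± 0.139 (adjusted p = 0.110). In this fit 535 of 35766 genes were called lower in the window and 510 in the persistent depletion of frog 2. In frog 1 these were 183 and 206 of 36290 genes. The values that follow are from the filtered genes, a set that favors a lower treated value for *lin28a.L*. They were not repeated with no filter. Without pool 3 of the −IAA controls the persistent value was −0.39 in frog 2 (adjusted p = 0.111) and −0.18 in frog 1 (adjusted p = 0.984). With pool 2 left out of all groups of frog 2, neither difference passed the threshold (adjusted p = 0.532 and 0.137). With pool 3 left out, the persistent difference did not (adjusted p = 0.313). Since the scale adds 1 TPM to each value, it understates changes of a gene at this level, and the control means were 1.99-fold to 7.09-fold above the treated means.

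Neither *lin28b* copy passed the test in any treated against control comparison at 7.5 hpf with all libraries. In the window depletion *lin28b.S* differed by 0.00 ± 0.114 (SE) in frog 1 and −0.01 ± 0.108 in frog 2, and *lin28b.L* by 0.05 ± 0.127 and 0.03 ± 0.101. In the persistent depletion *lin28b.S* differed by 0.06 ± 0.114 in frog 1 and by 0.28 ± 0.108 in frog 2 (limma, adjusted p = 0.0692), which passed the threshold without pool 1 (0.29, adjusted p = 0.0456). In that fit without pool 1, 4636 of 20019 genes were called higher, with a median of 0.22 over all genes. The frog 2 value stayed uncalled in 13 of 14 alternatives. In frog 2 all treated pools of *lin28b.S*, with a mean of 19.2 TPM ± 1.35 (SD, n = 3), lay above the control pools, with a mean of 15.6 ± 1.34 TPM, where the median over all genes tested was 0.16.

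**Figure D4:**
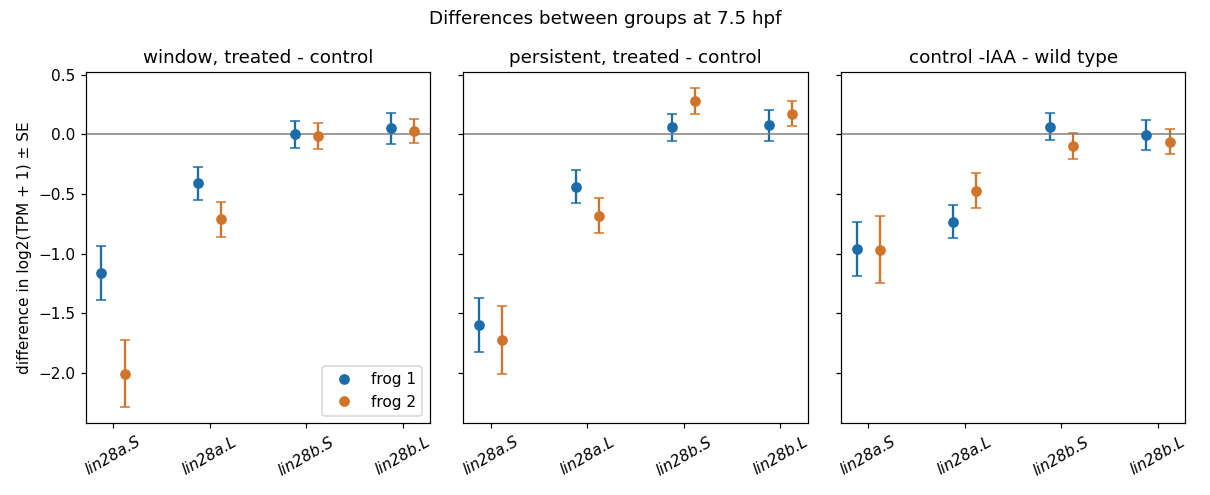
Differences in log2(TPM + 1) at 7.5 hpf for each *lin28* gene, with standard errors from limma, in frog 1 (blue) and frog 2 (orange). Panels show treated minus control in the window and in the persistent depletion and −IAA control minus wild type. *lin28a.S* lies between −2.01 and −0.96 in all panels, *lin28a.L* between −0.73 and −0.41, and the *lin28b* copies between −0.10 and 0.28.

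Across all genes tested, the calls at 7.5 hpf give the background for these 4 genes. In the window depletion 0.579% of genes in frog 1 and 1.87% in frog 2 were called lower, whereas 0.0431% and 1.28% were called higher. The corresponding persistent shares were 0.641% and 2.19% lower, and 0.0527% and 13.0% higher. Of the *lin28b* copies, 0 were called lower and 0 higher in either frog. *lin28a.L* is not counted because of how it passed the filter. The persistent counts depended on the −IAA control pool whose *lin28a.S* value was far above the others. Without it, a choice made after seeing the data, 96 genes were lower and 73 higher in frog 2. With all libraries these were 445 and 2633. In frog 1 they went from 134 and 11 to 41 and 2. A fit of the compared libraries alone called 0 lower and 2 higher in frog 2, and 1 and 2 in frog 1. After median-ratio rescaling the calls over all genes split differently, with 237 lower and 131 higher in the window and 301 and 114 in the persistent depletion of frog 1 (121 and 9, and 134 and 11, as deposited). In frog 2 there were 667 and 710 in the window and 830 and 642 in the persistent depletion (379 and 259, and 445 and 2633, as deposited).

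Treated embryos still accumulated *lin28a.S* between 6.5 and 7.5 hpf. In frog 1 the mean increased 24.3-fold in treated +IAA and 18.8-fold in treated −IAA embryos, from levels of at most 0.212 TPM. In frog 2 no treated library was above 0.200 TPM at 6.5 hpf, 3 of 6 were listed at 0, and all 6 lay between 0.670 and 4.48 TPM an hour later. At 7.5 hpf the treated means were 21.0% (+IAA) and 13.0% (−IAA) of the wild type mean in frog 1 and 17.7% and 10.0% in frog 2. The second copy differed in the persistent depletion of frog 2, where *lin28a.L* stood at 0.168, 0.119 and 0.171 TPM at 6.5 hpf and at 0.113, 0.0905 and 0.181 TPM at 7.5 hpf.

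At 6.5 hpf no treated library of either frog was above 0.212 TPM of *lin28a.S*. In frog 2 all treated pools lay below all control pools in both depletions, with treated +IAA pools at 0.130, 0.200 and 0 TPM against 0.533, 1.05 and 1.34 TPM, and treated −IAA pools at 0.0462, 0 and 0 TPM against 1.37, 1.62 and 0.207 TPM. The difference in log2(TPM + 1) was −0.81 ± 0.285 (SE) and −0.95 ± 0.285. In frog 1 the window difference was −0.33 ± 0.225, without overlap, from control pools at 0.274, 1.07 and 0.224 TPM, and it was −0.11 without pool 2. The persistent difference of frog 1 was −0.05 ± 0.225, with overlapping pools. The *lin28b* copies gave 0 calls in either direction at this stage, beside 0.105% and 1.32% of all genes in the window and 0.0957% and 1.49% in the persistent depletion.

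At 7.5 hpf the −IAA control means of both *lin28a* copies were below the wild type means in both frogs. At 6.5 hpf this held for *lin28a.S* but not for *lin28a.L*, which stood at 188% and 107% of wild type, from means under 0.2 TPM. This comparison sets −IAA controls against wild type, and it shares these controls with the persistent depletion. At 6.5 hpf in frog 1, *lin28a.S* stood at 0.251, 0.0929 and 0.202 TPM in controls and at 1.69, 0.890 and 1.87 TPM in wild type, an 8.15-fold lower mean without overlap. The difference was −1.05 ± 0.225 (SE) in log2(TPM + 1), beside a median of −0.25 and 16.8% of all genes called lower. In frog 2 it was −0.19 ± 0.285, with overlapping pools and 0.0542% of all genes called lower. Without pool 3, the values were −0.95 in frog 1 and 0.15 in frog 2.

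At 7.5 hpf the −IAA control mean of *lin28a.S* was 53.1% of the wild type mean in frog 1 and 54.6% in frog 2. The difference was −0.96 ± 0.225 (SE) in frog 1 and −0.97 ± 0.285 in frog 2, with control pools that overlapped the wild type pools in both frogs. With no filter, *lin28a.L* fell by 0.73 ± 0.139 in frog 1 (limma, adjusted p = 0.000102) and differed by −0.47 ± 0.147 in frog 2 (adjusted p = 0.0594). Over all genes tested, 1.47% in frog 1 and 1.02% in frog 2 were called lower. Leaving out pools was tried only among the filtered genes, a set other than that of the test with no filter. There *lin28a.L* did not pass the threshold in frog 1 when pool 1 or pool 2 was left out of all groups (limma, adjusted p = 0.173 and 0.330).

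The overlap with wild type came from 1 library in each frog. Without pool 3 of the −IAA controls, a choice made after seeing the data, *lin28a.S* differed from wild type by −1.36 in frog 1 and −1.44 in frog 2. *lin28a.L* differed by −1.0 and −0.77 among the filtered genes. No p-value is given for it here, since it passed the filter only through wild type and control libraries. In that pool, genes that rise in wild type embryos were also higher, with a mean log2(TPM + 1) over 1008 such genes of 4.32 in frog 1 and 4.19 in frog 2, against 4.09 and 4.16 in the other pools of frog 1 and 3.85 and 3.93 in frog 2. The wild type pools lay between 4.15 and 4.40. The part of this shift in the *lin28a* values was not tested. The *lin28b* copies gave no such difference, with values between −0.10 and 0.06 at 7.5 hpf.

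Auxin alone was compared in controls with and without it. At 7.5 hpf *lin28a.S* differed by 0.09 ± 0.225 (SE) in frog 1 and 0.76 ± 0.285 in frog 2, with overlapping pools, and 0 of the other 3 copies passed the test (limma), beside 0.00957% and 0.00986% of all genes. Without pool 3 of the −IAA controls the frog 2 value was 1.24, and without pool 2 the frog 1 value was −0.22. At 5.5 hpf in frog 1, *lin28b.S* was higher with auxin, at 28.2, 21.6 and 25.9 TPM against 17.5, 21.8 and 20.6 TPM, a difference of 0.32 ± 0.114 (adjusted p = 0.0281). In this comparison 38.7% of all genes were called higher, with a median of 0.29, and after median-ratio rescaling the *lin28b.S* value was −0.01 (adjusted p = 0.982).

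The makeup of *lin28* RNA at 7.5 hpf differed between the groups. The *lin28a* copies held 40.0% ± 2.38 (SD, n = 3) of the summed *lin28* TPM in wild type embryos in frog 1 and 42.2% ± 4.62 in frog 2. In treated embryos they held 12.4% ± 3.85 (+IAA) and 7.60% ± 1.54 (−IAA) in frog 1 and 10.7% ± 5.94 and 5.88% ± 2.56 in frog 2. Controls lay between these groups in frog 1, at 25.8% ± 3.25 (+IAA) and 24.5% ± 11.3 (−IAA), and in frog 2 at 36.6% ± 5.62 and 28.2% ± 14.8. The summed TPM was 55.8 ± 5.14 in wild type and 38.5 ± 1.97 in treated +IAA embryos of frog 1, and 37.9 ± 4.11 and 26.3 ± 2.11 in frog 2.

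**Figure D5:**
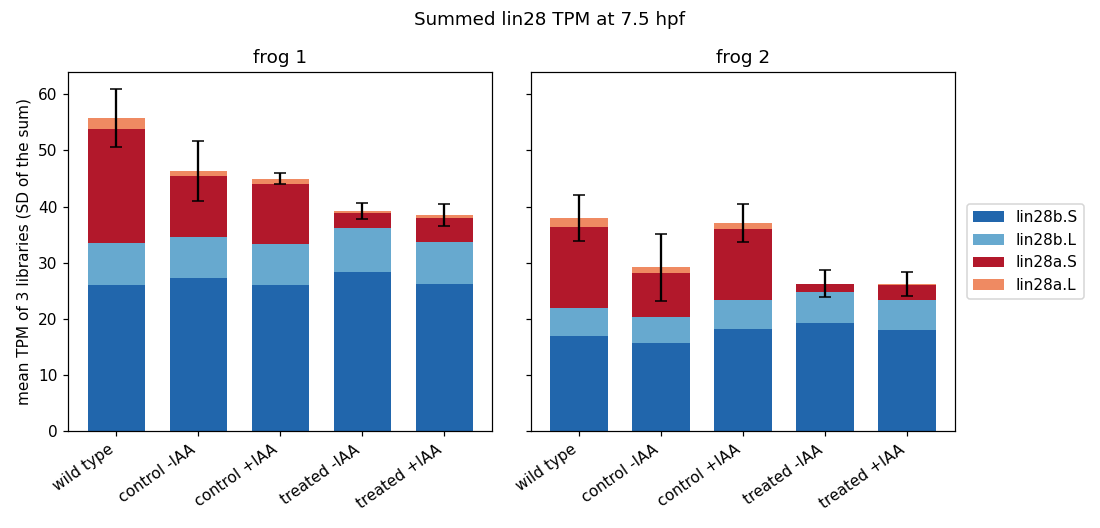
Mean TPM of the *lin28* genes at 7.5 hpf, stacked, in wild type, control and treated embryos of frog 1 (left) and frog 2 (right). Bars are means of 3 libraries and error bars the SD of the summed TPM. The *lin28b* part of the bars is similar in all groups of a frog, and the *lin28a* part falls from 40.0% and 42.2% in wild type to between 5.88% and 12.4% in treated embryos.

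The course of *lin28a.S* was set beside that of other genes. Among 1010 genes that rose by at least 1 in log2(TPM + 1) in wild type embryos of both frogs, which include both *lin28a* copies, 40 in frog 1 and 8 in frog 2 had a more negative window difference at 7.5 hpf than *lin28a.S*. In the persistent depletion these were 11 and 15 genes. The median difference of the 1010 genes lay between −0.32 and −0.16. *lin28a.S* thus stood near the lower end of the genes that rise at ZGA, which is the property it was selected on.

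Over the 15 group means, the genes most like *lin28a.S* included *akap12.L*, *crx.S*, *kirrel2.L*, *lpar2.L*, *gatm.L* and *pou5f3.1.S*. The likeness is Pearson's r of group means in log2(TPM + 1), taken as the lower of the 2 frogs, over 14996 genes with a group mean of at least 5 TPM. It ran from 0.985 for *akap12.L*, a scaffold of protein kinase A, to 0.976 for *pou5f3.1.S*, a POU transcription factor related to mammalian Oct4. The groups of a frog share their stages, so a high r is common to genes that rise at ZGA.

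Among these genes, *crx.S*, an Otx-related homeobox factor, stood at 12.9 TPM in wild type, 10.8 TPM in control +IAA and 3.78 TPM in treated +IAA embryos of frog 1 at 7.5 hpf, and in frog 2 at 6.93, 6.57 and 2.41 TPM (means of 3 pools). *lin28a.S* had the same order of these 3 groups in both frogs. *lin28a.L* had an r of 0.947 and 0.939 to *lin28a.S*, which would give it rank 69, and was itself no candidate because of its low level. *lin28b.S* had an r of 0.20 in frog 1 and −0.90 in frog 2, and *lin28b.L* of 0.01 and −0.90.

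The partners of Lin28 in let-7 control gave few calls. Of 26 tested copies of genes for let-7 precursor processing and Lin28 cofactors (*tut4*, *dis3l2*, *dicer1*, *drosha* and others), 0 were called in frog 1 in either depletion at 7.5 hpf. In frog 2, 3 fell in the window depletion (*hnrnpa1.S*, *khsrp.S* and *msi1.S*, all RNA-binding proteins) and 2 rose in the persistent depletion (*ago1.S*, an Argonaute protein, and *drosha.S*, the nuclease that cuts primary microRNAs), where 1.87% of all genes fell and 13.0% rose, respectively. The median difference of these copies was 0.06 in both depletions of frog 1, beside 0.06 and 0.08 over all genes, and 0.01 and 0.21 in frog 2, beside 0.03 and 0.16. The 13.0% is 2633 genes, which became 73 without the −IAA control pool set apart above. List counts without that pool are not given here. No symbol in the tables named a let-7 precursor (0 in both frogs), so let-7 itself was not analysed here.

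Genes known from other vertebrates as let-7 targets had median differences close to those of all genes. Of 36 tested copies, 1 fell and 0 rose in the window depletion in each frog (*ccnd1.L* in frog 1 and *ccnd1.S* in frog 2, both copies of cyclin D1). Of all genes, 0.579% and 1.87% fell there, and 0.0431% and 1.28% rose. In the persistent depletion 1 fell and 1 rose in frog 1, beside 0.641% of all genes that fell and 0.0527% that rose. In frog 2, 2 fell and 6 rose, beside 2.19% of all genes that fell and 13.0% that rose there. Both shares depended on the −IAA control pool set apart above, and list counts without that pool are not given here. *ccnd1.L* fell in both frogs, by 0.84 ± 0.183 (SE) and 0.74 ± 0.163 (limma, adjusted p = 0.0162 and 0.00413), and *mycn.S*, a Myc family transcription factor, rose by 0.46 ± 0.115 and 0.65 ± 0.119 (adjusted p = 0.0459 and 0.000794). The treated means of *ccnd1.L* were 0.791 and 0.195 TPM, below the 1 TPM of the filter, against 2.28 and 1.09 TPM in controls. The filter may thus favor a lower treated value. Which libraries admitted *ccnd1.L* was not examined, so no conclusion is drawn from its adjusted p-values. Without pool 3 of the −IAA controls *ccnd1.L* passed the test in neither frog (adjusted p = 0.309 and 0.128) and *mycn.S* in frog 2 alone (adjusted p = 0.419 and 0.0361). Over all alternatives, *ccnd1.L* kept its persistent call in 6 of 12 in frog 1 and in 8 of 12 in frog 2. *mycn.S* kept it in 5 of 13 in frog 1 and in 11 of 13 in frog 2. The median difference of the 36 copies was 0.07 and 0.08 in frog 1 and −0.00 and 0.18 in frog 2, beside 0.06 and 0.08 and 0.03 and 0.16 over all genes.

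Early pluripotency factors had more calls. Many of them rose in wild type embryos from 5.5 to 7.5 hpf, 18 of 22 tested copies in frog 1 and 10 of 20 in frog 2. Of all genes, 56.2% and 8.37% rose in that step. The list was not compared with other rising genes. In the window depletion 3 of 22 tested copies fell in frog 1 and 9 of 20 in frog 2, with 0 higher in either, beside 0.579% and 1.87% of all genes called lower. In the persistent depletion 3 of 22 fell in frog 1, beside 0.641% of all genes lower. In frog 2, 6 of 20 fell and 3 rose (*klf2.L* and the POU factor copies *pou5f3.3.L* and *pou5f3.3.S*), beside 2.19% of all genes lower and 13.0% higher. The median difference of the list was −0.15 and −0.39 in the window and −0.19 and −0.14 in the persistent depletion of frogs 1 and 2, beside 0.06 and 0.03, and 0.08 and 0.16, over all genes. The persistent shares over all genes in frog 2 depended on the −IAA control pool set apart above. List counts without that pool are not given here. *pou5f3.1.L*, the other copy of the POU factor named above, was called lower in both frogs and both depletions. In the window depletion it stood at 16.7 ± 7.48 TPM (SD, n = 3) in treated and 30.0 ± 3.45 TPM in control embryos of frog 1, and in frog 2 at 5.65 ± 0.621 and 16.3 ± 2.63 TPM. It fell by 0.88 ± 0.204 (SE) and 1.37 ± 0.208 in log2(TPM + 1) in the window (limma, adjusted p = 0.0269 and 8.28e-05), and by 0.99 and 1.49 in the persistent depletion (adjusted p = 0.00960 and 3.95e-05). Without pool 3 of the −IAA controls, the persistent call was lost in frog 1 (adjusted p = 0.207) and kept in frog 2 (adjusted p = 0.00113). A fit of the compared libraries alone called 0 genes lower in the persistent depletion of frog 2, so that call was lost in this fit. In frog 1 the window call was lost without pool 1 (adjusted p = 1) or pool 3 (adjusted p = 0.435) and the persistent call without pool 2 (adjusted p = 0.0566) or pool 3 (adjusted p = 0.636), and in frog 2 the window call without pool 2 (adjusted p = 0.212).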

How the data were processed

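RNA of whole *Xenopus laevis* embryos was sequenced in 90 libraries, 6 for each of 15 groups. The deposited values are TPM, which the authors made with kallisto 0.48 against the transcripts of assembly Xenopus_laevis_v10.1 and tximport, summing isoforms per gene, without scaling between libraries. Each library summed to between 981704 and 998426 TPM. Since TPM keep no read counts, they were tested on a log scale. The depth is unknown, and no counting interval can be given. Because TPM are shares of a library, a shift in abundant RNA moves all other genes, and ribosomal RNA held 1.77% to 37.4% of TPM.

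Values of entries with one gene name were added up (2269 in frog 1 and 2204 in frog 2, 0 of them *lin28*), and 806 unnamed entries of frog 2 (at most 0.0744% of a library) were left out. The *lin28* genes, the comparison lists and the tests were chosen with earlier results of these data known, and *lin28a.S* for its values. A planned test of *lin28a.S* against wild type and between auxin groups was dropped, since these share libraries with its selection. Gene positions came from RefSeq. No sequences are shown.

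Genes reaching 1 TPM in 3 or more libraries of a frog were kept (20891 in frog 1 and 20277 in frog 2). log2(TPM + 1) was fitted per frog with limma 3.58.1 in R 4.3.3, with one mean for each of the 15 groups (30 residual degrees of freedom), empirical Bayes and a mean-variance trend. Two-sided p-values were adjusted over all genes of a comparison (Benjamini-Hochberg) and called under 0.05. They measure the spread between pools of siblings, not between frogs. The fit was tested on simulated data. Named genes were all *lin28* copies, list members whose call and sign were shared by the frogs, members called in a single frog where 3 or fewer, and the 8 genes most like *lin28a.S* over group means. Some genes that this rule names are not reported here.

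Alternatives were a pseudocount of 0.1, no filter, a filter on a mean of 5 TPM, median-ratio rescaling (reference genes averaging 10 TPM or more), quantile normalization, removal of rRNA, tRNA, globin and H3.3 genes, a fit of the compared libraries alone, no trend, a replicate block made from the pool number, summed copies and leaving out each pool number. Leaving out pool 3 of the −IAA controls at 7.5 hpf was added after the data were seen.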

Additional observations from a re-analysis of the deposited data

Results flagged for a closer look

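At 5.5 hpf a single library held all the *lin28a.S* signal of its group in 2 groups, and was therefore far from the others. In treated +IAA embryos, pool 2 of frog 1 was listed at 0.334 TPM and the other 5 libraries at 0, and in control +IAA embryos, pool 1 of frog 1 was listed at 0.173 TPM and the other 5 at 0. At 6.5 hpf, *lin28a.L* was listed at 0.0173 TPM in pool 1 of the −IAA controls of frog 2, with the other 5 libraries between 0.151 and 0.212 TPM. All 3 values lie far under 1 TPM. In all, 60 groups of 6 libraries were examined in this way, and about 1 in 20 groups is singled out by chance. That rate does not apply to the 2 groups with 5 libraries at 0, where any value above 0 is singled out.

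Of the wild type changes of *lin28b*, 3 went in opposite directions in the frogs, with no overlap between the compared stages in either frog. The change from 5.5 to 6.5 hpf of *lin28b.S* was 1.14 higher in frog 1 than in frog 2 in log2(TPM + 1), and that from 5.5 to 7.5 hpf 1.24 higher. For *lin28b.L* the change from 5.5 to 7.5 hpf was 0.94 higher in frog 1. The difference between the frogs was not tested. These directions were common among all genes tested. Between 5.5 and 6.5 hpf, 75.8% of genes were called higher for frog 1, while 64.4% were called lower for frog 2. Between 5.5 and 7.5 hpf these shares were 56.2% and 79.7%. How many genes had stages without overlap was not counted, so the 3 changes do not set *lin28b* apart. The median change over all genes from 5.5 to 7.5 hpf was 0.39 in frog 1 and −0.69 in frog 2.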

How the results depend on the processing

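The treated against control difference of *lin28a.S* at 7.5 hpf kept its sign in all alternatives, from −1.33 to −1.07 in frog 1 and −2.41 to −1.71 in frog 2 in the window depletion, and from −2.03 to −1.13 and −2.28 to −1.25 in the persistent depletion. At 6.5 hpf the near-zero persistent value of frog 1 became 0.00521 with quantile normalization. Without pool 2, the window minus persistent value of frog 2 became 0.22. Over all results with a test, 555 alternatives kept sign and side of the threshold, 95 lost the call, 3 gained one, 28 values changed sign without a call before or after, and 6 changed sign where one of the values was called.

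Fitting the compared libraries alone left all values as they were and ended these calls of *lin28* genes: *lin28a.L* against wild type in frog 1 (−0.73), *lin28a.L* in frog 2 (window −0.71, persistent −0.68), and in frog 2 *lin28b.S* (−0.37 and −0.45) and *lin28b.L* (−0.29 and −0.41) over both wild type steps. Over all genes at 7.5 hpf that fit called 5 lower in frog 1 and 30 in frog 2 in the window depletion. In the persistent depletion it called 1 and 0 lower, so the frog 2 calls of *pou5f3.1.L* and *ccnd1.L* were lost there. That fit has far fewer samples for the spread. For *lin28a.L*, the calls that ended here and in the paragraphs that follow are those of the filtered genes. A pseudocount of 0.1 ended the frog 1 call of *lin28a.L* against wild type at 7.5 hpf (−1.28) and moved the 6.5 hpf value of *lin28a.S* against wild type in frog 1 to −2.47. The cause was not tested.

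Scaling decided the *lin28b* course in wild type. From 5.5 to 6.5 hpf, median-ratio rescaling and quantile normalization gave 0.083 and 0.12 for *lin28b.S* in frog 1, −0.0089 and 0.000597 for *lin28b.L* in frog 1, 0.0134 and 0.00938 for *lin28b.S* in frog 2 and 0.061 and −0.00107 for *lin28b.L* in frog 2, all uncalled. From 6.5 to 7.5 hpf they gave −0.083 and −0.13 for *lin28b.S* in frog 1, −0.056 and −0.070 in frog 2, and −0.052 and −0.090 for *lin28b.L* in frog 2, and median-ratio rescaling −0.13 for *lin28b.L* in frog 1. Removing rRNA, tRNA, globin and H3.3 genes gave −0.18 for the first step of *lin28b.L* in frog 2. The auxin value of *lin28b.S* at 5.5 hpf in frog 1 became −0.00905 and −0.00626.

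Leaving out 1 pool number ended calls at these values: −0.62 to −0.55 for *lin28a.L* against wild type in frog 1, −0.62 for its window and −0.66 to −0.42 for its persistent value in frog 2. For *lin28b.S* these were −0.37 to −0.28 (frog 1) and −0.30 (frog 2) in the second and −0.26 (frog 2) in the first wild type step, and for *lin28b.L* −0.39 to −0.32 (frog 1, second) and −0.16 (frog 2, first). Without pool 2, the auxin value of *lin28a.S* at 7.5 hpf in frog 1 was −0.22. In frog 2, leaving out pool 3 turned the 6.5 hpf value of *lin28a.S* against wild type to 0.15. The 7.5 hpf value of *lin28a.L* against wild type became −0.69, and −0.77 when only that −IAA control library was left out. Both are from the filtered genes, so no call is drawn from them. Leaving out that library also ended the persistent call of *lin28a.L* (−0.39).

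Pool numbers did not pair the libraries: 0 of 72 correlations between same-numbered libraries were over 0.1. A replicate block made from them gave −2.01 for *lin28a.S* in the window depletion of frog 2 and changed no call of a *lin28b* copy. With that block, the persistent calls over all genes of frog 2 were 431 lower and 2338 higher. No call of *lin28a.L* is drawn from the block, which was fitted to the filtered genes. *lin28a.L* does not reach a mean of 5 TPM, so that filter gave it no value, and without pool 3 of frog 1 it did not pass the 1 TPM filter. Values of *lin28a* under 1 TPM carry little information, since the reads behind them are unknown.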

Other observations

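The genes next to *lin28a* were not called in the window depletion at 7.5 hpf, as far as they passed the filter. *dhdds.S*, the neighbor of *lin28a.S*, stood at 17.1 ± 1.44 TPM (SD, n = 3) in treated and 16.7 ± 0.890 TPM in control embryos in frog 1, and at 10.7 ± 0.392 and 11.2 ± 1.15 TPM in frog 2 (limma, adjusted p = 0.988 and 0.940). *dhdds.L*, next to *lin28a.L*, stood at 5.89 ± 0.508 and 5.35 ± 0.278 TPM in frog 1 and at 4.24 ± 0.236 and 4.04 ± 0.304 TPM in frog 2 (adjusted p = 0.988 and 0.912). On the other side of *lin28a.L*, *crybg2.L* had a mean of at most 0.0191 TPM in the groups compared and was not tested. *LOC108709519*, on the other side of *lin28a.S*, stood at 0.784 ± 0.101 in treated and 0.980 ± 0.0770 TPM in control embryos of frog 2 (−0.15, adjusted p = 0.596), and in frog 1, where it was not tested, at 0.50 ± 0.0444 and 0.647 ± 0.0735 TPM.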
